A study of Mus musculus with 3 samples.

Results

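The Toll-like receptors and their co-receptor CD14 were followed across 3 liver RNA libraries by 10 genes, chosen by symbol from the 35275 genes of the deposited table: Tlr1, Tlr2, Tlr3, Tlr4, Tlr5, Tlr7, Tlr8, Tlr12, Tlr13 and Cd14. Each symbol matched 1 gene, and 8 of the 10 reached 1 FPKM, the unit of the deposited values (fragments of a gene per kilobase of its length scaled to the size of the library), in at least 1 library. Tlr4 and Tlr8 stayed below that level in every library.

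Bulk liver RNA was sequenced from male C57BL/6J mice aged 10 weeks at the start of feeding, with 1 library in each of 3 groups. Control mice ate normal chow and had no hormone, and their time on it is not in the labels. NASH (nonalcoholic steatohepatitis) mice had no hormone either and ate western diet with liquid fructose, with 24 weeks named in the label. TH-treated NASH mice ate the same diet, and after 16 weeks T3 (35 ng/g) and T4 (7 ng/g), the thyroid hormones (TH), were added to their 15% fructose water for 8 weeks. Whether RNA of several mice was pooled is not stated. With a single library in each group, no difference below has a replicate check, and no test between groups was run. The libraries held 54576236 (control), 47009255 (NASH) and 38303410 (TH-treated NASH) fragments on genes, of which 2709, 5372 and 3426 fell on the 10 genes. All 8 hepatocyte markers checked stood at 260.8 FPKM or more in every library. Where 3 values of a gene follow each other, they stand for control, NASH and TH-treated NASH in that order. A range in brackets is a 95% counting interval, which covers counting error only.

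Toll-like receptors (TLRs) are membrane proteins that bind molecules of microbes and of damaged cells and start inflammatory signalling. TLR1, TLR2, TLR4 and TLR5 sit at the cell surface, whereas TLR3, TLR7, TLR8, TLR12 and TLR13 signal from endosomes, to which the chaperone UNC93B1 carries the nucleic acid sensors. All but TLR3 signal through the adaptor MYD88, TLR3 uses TRIF (gene Ticam1), and TLR4 uses both. In liver the receptors are best known from Kupffer cells, the resident macrophages that meet gut-derived microbial products in portal blood, and from recruited monocytes, with some receptors also in endothelial cells, stellate cells and hepatocytes.

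The receptors differed widely in level. Tlr12, a receptor for the profilin protein of parasites such as Toxoplasma, was the most abundant in each library at 6.94 FPKM (control), 17.5 (NASH) and 11.8 (TH-treated NASH). Its level rested on 1203, 2605 and 1432 fragments, and it made up 49.7%, 54.5% and 51.7% of the summed FPKM of the 9 TLR genes. The lowest was Tlr8, an endosomal receptor related to TLR7, at 0.224, 0.583 and 0.472 FPKM on 42, 94 and 62 fragments. In control the order after Tlr12 was Tlr5, Cd14, Tlr3, Tlr2, Tlr1, Tlr13, Tlr7, Tlr4 and Tlr8. Cd14 and Tlr3, Tlr1 and Tlr13, Tlr7 and Tlr4, and Tlr4 and Tlr8 did not differ there beyond counting error. In NASH Cd14 passed Tlr5 to rank next to Tlr12, and only the neighbours Tlr2 and Tlr3, and Tlr13 and Tlr7, were within counting error of each other. In TH-treated NASH Tlr5 had dropped to the eighth place, and each neighbour from Tlr2 through Tlr1, Tlr7 and Tlr13 to Tlr5 was within counting error of the next.

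**Figure D1:**
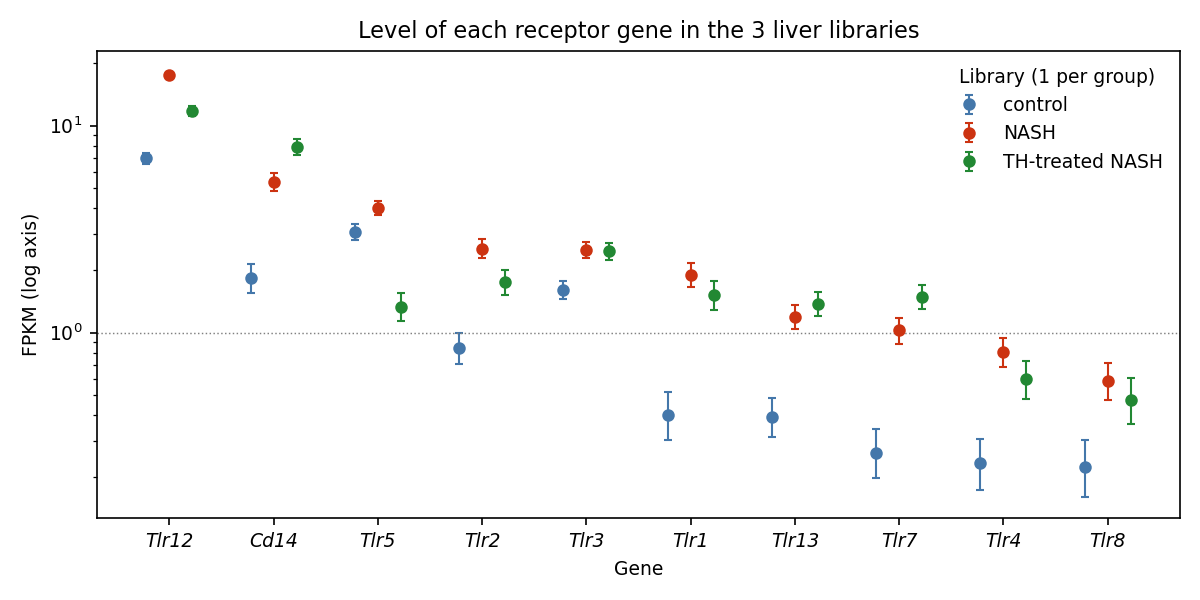
FPKM (log axis) of the 10 genes in the control, NASH and TH-treated NASH libraries, 1 library per group, with points for the deposited values and bars for the 95% Poisson counting interval; the dotted line marks 1 FPKM. Every gene is higher in NASH than in control, and Tlr5 is the only one of the 10 that lies lower in TH-treated NASH than in control.

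NASH was set against control to see which transcripts differed with the diet. All 10 genes were higher in NASH, from 1.30-fold for Tlr5 to 4.74-fold for Tlr1, and with the deposited values no counting interval reached 1. In bulk tissue, a change in the number of cells of a type and a change in RNA per cell cannot be told apart. An interval wholly above 1 without any fold asked was common, at 50.7% of the 12991 genes with a mean of 0.4 FPKM or more, a set that holds all 10 and was chosen after the data were seen. A plain ratio of 1.5-fold with such an interval was met by 9 of the 10 and by 18.2% of that set. On the lower side, where none of the 10 lay, these shares were 17.9% and 3.74%. On the log2(FPKM + 1) scale, which understates the change of low genes, 6 of the 8 genes that reached 1 FPKM were at least 1.5-fold higher and none was lower. The 6 were Tlr1, Tlr2, Tlr7, Tlr12, Tlr13 and Cd14. Of all 11835 genes that reached 1 FPKM in any library, 10.3% were higher and 2.53% lower by that measure. Tlr1, Tlr2, Tlr7 and Tlr13 reached 1 FPKM only outside control, and Tlr4, Tlr7, Tlr8 and Tlr13 lay below 0.4 FPKM in control, so that neither the count of 6 nor that of 9 is support for a difference. The median log2 difference was 0.81 over the 8 and 0.67 over all 10, against 0.12 over all genes tested.

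Among the surface receptors, TLR2 pairs with TLR1 to bind bacterial lipopeptides. Tlr1 stood at 0.401 FPKM (control), 1.90 (NASH) and 1.52 (TH-treated NASH), and was 4.74-fold higher in NASH than in control (3.55 to 6.44). Its partner Tlr2 stood at 0.839, 2.54 and 1.75 FPKM and was 3.03-fold higher in NASH (2.48 to 3.71). For both genes control was lowest, NASH highest and TH-treated NASH between them. Tlr4, which encodes the receptor for bacterial lipopolysaccharide, stood at 0.234, 0.804 and 0.596 FPKM, in the same order of libraries. It was 3.44-fold higher in NASH (2.50 to 4.80) on 154 against 52 fragments. Cd14, whose product hands lipopolysaccharide to TLR4 and its partner MD-2, stood at 1.83, 5.35 and 7.89 FPKM. It was 2.92-fold higher in NASH than in control (2.42 to 3.54), and here TH-treated NASH was the highest library. Tlr5, the receptor for flagellin, the protein of bacterial flagella, stood at 3.06, 4.0 and 1.33 FPKM. Its difference between NASH and control was the smallest of the 10, 1.30-fold (1.16 to 1.47).

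Among the endosomal receptors, Tlr7, which senses single-stranded RNA, stood at 0.263, 1.03 and 1.49 FPKM. In NASH it was 3.90-fold higher than in control (2.88 to 5.35). Tlr13, which recognises a stretch of bacterial ribosomal RNA, followed the same order at 0.393, 1.19 and 1.38 FPKM and was 3.04-fold higher in NASH (2.37 to 3.94). Tlr8 was 2.60-fold higher (1.79 to 3.83) on 94 against 42 fragments, and Tlr12 2.51-fold higher (2.35 to 2.69). Tlr3, the sensor of long RNA duplexes, stood at 1.61, 2.51 and 2.47 FPKM. At 1.55-fold (1.36 to 1.78) its difference between NASH and control was next to the smallest, and the NASH and TH-treated NASH libraries lay close together.

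TH-treated NASH was set against NASH to see which transcripts differed with the hormones. Here the genes went apart: Tlr5 was 3.0-fold lower (2.52 to 3.59) in TH-treated NASH, on 163 against 601 fragments, while Cd14 was 1.48-fold higher (1.29 to 1.69) and Tlr7 1.45-fold higher (1.19 to 1.77). Tlr12 was 1.48-fold lower (1.39 to 1.58), Tlr2 1.45-fold lower (1.22 to 1.73), Tlr4 1.35-fold lower (1.04 to 1.76) and Tlr1 1.25-fold lower (1.02 to 1.55). For Tlr3, Tlr8 and Tlr13 the interval of the ratio held 1, with ratios of 0.984 (0.862 to 1.12), 0.809 (0.578 to 1.13) and 1.15 (0.951 to 1.39). Of the 8 genes at 1 FPKM or more in any library, Tlr5 alone was past 1.5-fold on the log2(FPKM + 1) scale, on the lower side, where 9.02% of all genes tested lay, with 8.42% on the higher side. A count of 1 in 8 is near that background. By the counting interval alone 2 of the 10 were higher (32.1% of the 12991 genes) and 5 lower (38.5%), and with a plain 1.5-fold ratio as well none was higher (11.2%) and Tlr5 was lower (14.4%). Cd14 and Tlr12 lay just inside 1.5-fold, at log2 differences of 0.49 and −0.53. The median of the 8 was −0.11, against −0.04 over all genes.

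**Figure D2:**
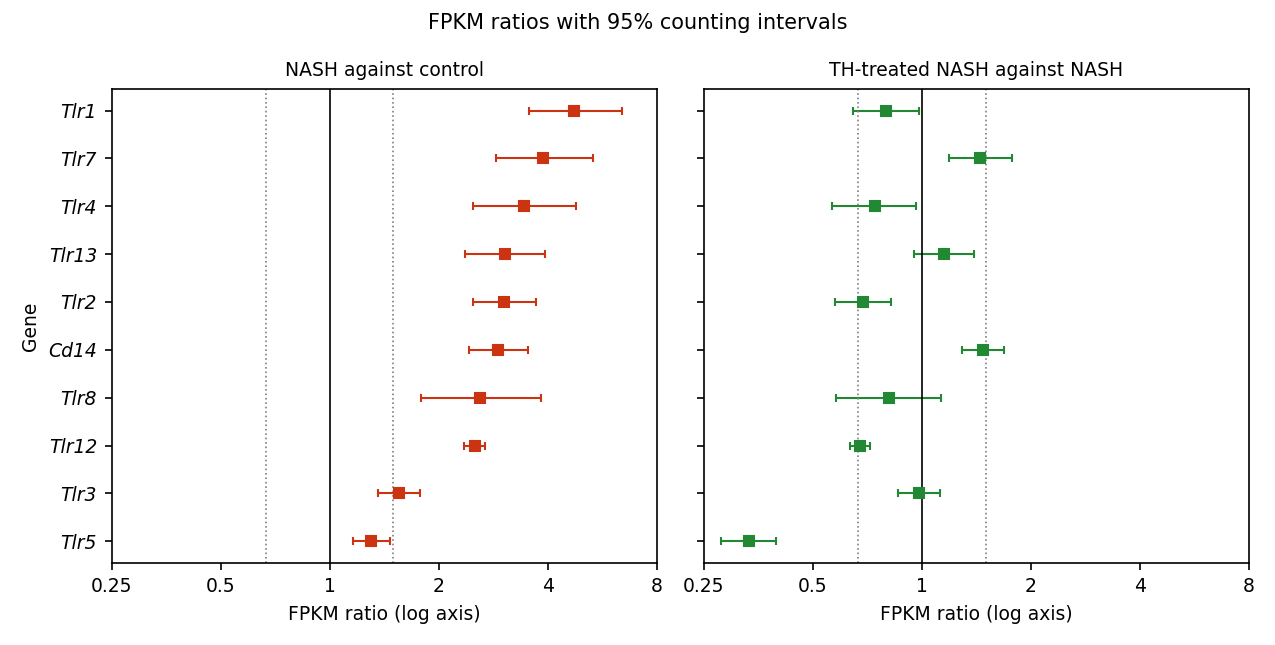
Ratio of FPKM (log axis) of NASH to control on the left and of TH-treated NASH to NASH on the right for the 10 genes, squares with 95% counting intervals; the solid line marks no difference and the dotted lines 1.5-fold. On the left all intervals lie above 1, and on the right Tlr5 stands apart at 0.333 (0.278 to 0.396) while Cd14 and Tlr7 lie above 1.

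The 2 comparisons share the NASH library, so their values are given side by side only. TH-treated NASH was also set against control, with which the comparison of NASH shares the control library. Cd14 was 4.31-fold higher than in control (3.59 to 5.20), Tlr7 5.65-fold (4.20 to 7.71), Tlr1 3.78-fold (2.78 to 5.21), Tlr13 3.50-fold (2.72 to 4.55) and Tlr12 1.70-fold (1.57 to 1.83). Tlr5 was 2.30-fold lower (1.93 to 2.76). On the log2(FPKM + 1) scale 5 of the 8 genes were 1.5-fold higher, where 15.5% of all genes tested lay, and 1 was lower, where 6.86% lay. Tlr1, Tlr7 and Tlr13 are among the 5 and reached 1 FPKM only outside control, so this count too is no support. Tlr2 fell just short of 1.5-fold on that scale, at 0.58, with a plain ratio of 2.09 (1.67 to 2.61). By the counting interval 9 of the 10 were higher (47.8% of the 12991 genes) and 1 lower (27.5%), and with a plain 1.5-fold ratio as well the counts were also 9 (22%) and 1 (10.4%). Tlr4, Tlr7, Tlr8 and Tlr13 lay below 0.4 FPKM in control and met the filter on the mean through the other libraries. The counts of 9 are therefore no support for a difference either. The remaining ratios were 1.53 (1.33 to 1.76) for Tlr3, 2.55 (1.80 to 3.65) for Tlr4 and 2.10 (1.40 to 3.19) for Tlr8.

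Scaling moved all of these values together. The median log2 difference of all genes between NASH and control was 0.12 with the deposited values. It moved to −0.06 under median-of-ratios scaling and to −0.02 under trimmed-mean (TMM) scaling. Of all genes past 1.5-fold between these libraries, 80.3% were higher with the deposited values, against 59.7% (median-of-ratios) and 64.2% (TMM). Between TH-treated NASH and control the same shares were 69.3%, 50.5% and 49.2%. The point values of the 10 genes stayed higher in NASH than in control under each of the 3 scalings tried. These were median-of-ratios, TMM, and rescaling without the 50 most abundant genes. Tlr5 was the lowest, at 0.13 after median-of-ratios scaling. The divisor of NASH in that scaling, 1.162, is above the lower limit of the Tlr5 interval, 1.159, so after it the interval of Tlr5 holds 1. Between TH-treated NASH and NASH the upper limit of the Tlr1 ratio was 0.981 with the deposited values. The divisor of TH-treated NASH in median-of-ratios scaling, 1.130, is below that of NASH, which raises the ratio. The interval of Tlr1 then holds 1, and Tlr1 leaves the genes counted as lower. The log2 difference of Tlr3 between TH-treated NASH and NASH was −0.02 with the deposited values and 0.01 under median-of-ratios scaling.

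The bases in front of the start sites of 4 receptor genes are shown because these genes span the patterns above, which overlap. Tlr12 had the highest level, Tlr5 was lowest in TH-treated NASH, and Tlr2 was highest in NASH, as Tlr12 and Tlr5 also were. Tlr13 was higher than control in both other libraries, which did not differ beyond counting error. RefSeq promoter entries of build GRCm38.p6 were found for 7 of the 10 genes and not for Tlr4, Tlr7 and Cd14. Each run ends before whichever of the RefSeq and the deposited start site lies further upstream. The runs are chr4:128618620-128618869 (minus strand) for Tlr12, chr1:182954538-182954787 (plus strand) for Tlr5, chr3:83841768-83841858 (minus strand) for Tlr2 and chrX:106143025-106143203 (plus strand) for Tlr13. They are written 5′ to 3′ on the strand of the gene, and capitals mark a match to one of 5 motifs searched on both strands.
Tlr12: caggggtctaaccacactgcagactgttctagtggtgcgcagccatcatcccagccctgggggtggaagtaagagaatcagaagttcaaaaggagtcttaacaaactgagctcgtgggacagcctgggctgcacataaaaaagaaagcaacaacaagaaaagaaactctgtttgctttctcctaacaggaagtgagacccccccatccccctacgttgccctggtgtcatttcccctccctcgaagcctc
Tlr5: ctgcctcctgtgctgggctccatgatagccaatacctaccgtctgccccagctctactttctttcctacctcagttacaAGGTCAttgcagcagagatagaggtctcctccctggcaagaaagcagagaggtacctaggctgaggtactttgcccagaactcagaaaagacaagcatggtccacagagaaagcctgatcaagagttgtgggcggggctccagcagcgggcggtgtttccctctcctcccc
Tlr2: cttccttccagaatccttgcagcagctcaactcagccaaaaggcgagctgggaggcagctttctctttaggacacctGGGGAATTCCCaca
Tlr13: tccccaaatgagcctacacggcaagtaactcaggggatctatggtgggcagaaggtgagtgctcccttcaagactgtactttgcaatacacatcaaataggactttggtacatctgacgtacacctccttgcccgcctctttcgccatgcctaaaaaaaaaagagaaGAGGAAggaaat
Of the 32851 promoter entries, 14% hold AGGTCA in the 250 bases before the start. The capitals in Tlr5 are 1 match to AGGTCA, a half-site of the elements that thyroid hormone receptors and other nuclear receptors bind. In Tlr2 they are overlapping matches to the NF-kappaB consensus, which 7.25% of entries hold, and the 250-base windows of Tlr2 and Tlr3 were the ones with it among the 7. In Tlr13 they are GAGGAA, the core bound by PU.1 and other ETS factors, which 23.3% of entries hold and which Tlr8 also has. The window of Tlr2 also holds AGGTCA, 15 bases before the RefSeq start and past the end of the run shown. No entry of the 7 held TGANTCA (the AP-1 site, 6.75% of entries) or the IRF site searched (2.98%), and the windows of Tlr12 and Tlr1 held none of the 5. Pairs of half-sites were not searched for. A match describes letters in a window and does not show that a factor binds there.

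As the deposited table gives them, on a genome build that no source here names, Tlr12 (ENSMUSG00000062545) lies on chromosome 4 from 128615446 to 128618619 and Tlr5 (ENSMUSG00000079164) on chromosome 1 from 182954788 to 182976044. Cd14 (ENSMUSG00000051439) lies on chromosome 18 from 36725074 to 36726736 and Tlr2 (ENSMUSG00000027995) on chromosome 3 from 83836273 to 83841767. Tlr13 (ENSMUSG00000033777) lies on chromosome X from 106143204 to 106160493, and Tlr7 and Tlr8 lie near each other on the same chromosome. None of the 10 overlaps another gene of the table. In GENCODE M21 transcripts, 15.3% of the 50-base stretches of Tlr1 also occur in its neighbour Tlr6, so the split of reads between them is uncertain. For Tlr3 1.56% were shared with another gene model, and the other 8 genes shared none.

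The 3 other mouse receptors of the family in the table were lower still. Tlr6, the other partner of TLR2, stood at 0.162, 0.384 and 0.461 FPKM, Tlr9, the sensor of unmethylated CpG DNA, at 0.0580, 0.208 and 0.0751, and Tlr11, which binds profilin together with TLR12, at 0.0800, 0.146 and 0.179. Tlr9 rested on 11, 34 and 10 fragments and was 3.59-fold higher in NASH than in control (1.78 to 7.85). Tlr11, the partner of the most abundant receptor here, rested on 14, 22 and 22 fragments.

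The proteins that load and carry the receptors differed among themselves. Of 9 co-receptor and chaperone genes, 4 were at least 1.5-fold higher in NASH than in control on the log2(FPKM + 1) scale and 1 was lower, with a median of 0.35. Of all genes tested, 10.3% were higher and 2.53% lower. Cd180 is among the 4 and reached 1 FPKM only outside control, so the count is no test. Cd180, a TLR-like receptor that tempers TLR4 signalling, was 5.09-fold higher (3.95 to 6.62) and its partner Ly86 3.57-fold (3.01 to 4.26). Cd36, a fatty acid translocase that also serves TLR2 as co-receptor, was 4.48-fold higher and Unc93b1 1.77-fold higher. Lbp, the plasma protein made by hepatocytes that delivers lipopolysaccharide to CD14, stood at 54.2, 30.1 and 35.6 FPKM and so was lower in NASH, where Cd14 was higher. Ly96, which encodes MD-2, stood at 4.32, 5.56 and 4.47 FPKM. In TH-treated NASH against NASH, 1 of the 9 was past 1.5-fold, Cd36 at a ratio of 0.399 (0.383 to 0.416), and none was higher. The shares of all genes tested were 9.02% lower and 8.42% higher.

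Of 20 adaptor and kinase genes 19 reached 1 FPKM. On the log2(FPKM + 1) scale none of the 19 was 1.5-fold off in NASH against control or in TH-treated NASH against NASH, with medians of 0.12 and −0.10. Myd88 stood at 9.44, 10.4 and 11.4 FPKM, and Ticam1 at 4.25, 5.59 and 7.39. Pik3ap1, an adaptor that links TLRs to PI3 kinase, showed the largest log2 difference of the 19 in these comparisons, −0.55 in TH-treated NASH against NASH, a plain ratio of 0.664 (0.617 to 0.713). The kinase genes Ikbke and Ripk1 stood at 3.10, 4.64 and 5.49 FPKM and at 4.37, 3.78 and 2.68 FPKM, and Ikbkg, which encodes the IKK subunit NEMO, at 11.3, 8.49 and 7.17. Among 12 transcription factors of the pathway, 11 of which reached 1 FPKM, 6 were higher in NASH and none lower, with a median of 0.59 (0.36 over all 12). The NF-kappaB subunits Nfkb2 and Relb were 2.41-fold (2.14 to 2.71) and 2.70-fold (2.21 to 3.31) higher, and Irf7, a driver of interferon genes, 1.94-fold. In TH-treated NASH against NASH 3 were higher and 1 lower, with Cebpb 1.88-fold and Irf7 1.62-fold higher and Nfkb2 at 0.576 of its NASH level (0.511 to 0.649). Of all genes tested, 10.3% were higher and 2.53% lower in NASH than in control. Between TH-treated NASH and NASH these shares were 8.42% and 9.02%. Relb reached 1 FPKM only outside control, so the count of 6 is no test.

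Negative regulators and target genes showed differences in both directions. Of 12 negative regulators 9 reached 1 FPKM, and 3 of these were higher in NASH and none lower (median 0.21). Atf3, a repressor that TLR signals induce, was 6.68-fold higher (4.85 to 9.39), and Tnfaip3, which encodes the ubiquitin-editing enzyme A20, 4.82-fold (3.80 to 6.17). Tnip1, which encodes a partner of A20, was 1.70-fold higher (1.52 to 1.91). In TH-treated NASH Tnfaip3 stood at 0.392 of its NASH level (0.315 to 0.485), while the phosphatase gene Dusp1 was 1.62-fold higher, and in all 2 were higher and 1 lower. Of 18 target genes of NF-kappaB and IRF factors 10 reached 1 FPKM, with 7 higher and none lower in NASH and a median of 1.10, against 0.46 over all 18. Among these were Ccl2, a chemokine that draws monocytes, at 8.92-fold (5.86 to 14.1), Ccl5 at 5.14-fold, Cxcl9, a T cell chemokine, at 3.71-fold (3.28 to 4.21), and Ccl4 at 6.39-fold (3.42 to 13.0) on 12 control fragments. In TH-treated NASH against NASH 4 target genes were lower and 1 higher, with a median of −0.44, against −0.12 over all 18. Ccl2 stood at 0.198 (0.131 to 0.291) and Ccl4 at 0.260 (0.135 to 0.468) of the NASH level. Atf3, Tnfaip3, Ccl2 and Ccl4 reached 1 FPKM only outside control, so the counts describe the lists and are no test. Of all genes tested, 10.3% were higher and 2.53% lower in NASH than in control. Between TH-treated NASH and NASH these shares were 8.42% and 9.02%.

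**Figure D3:**
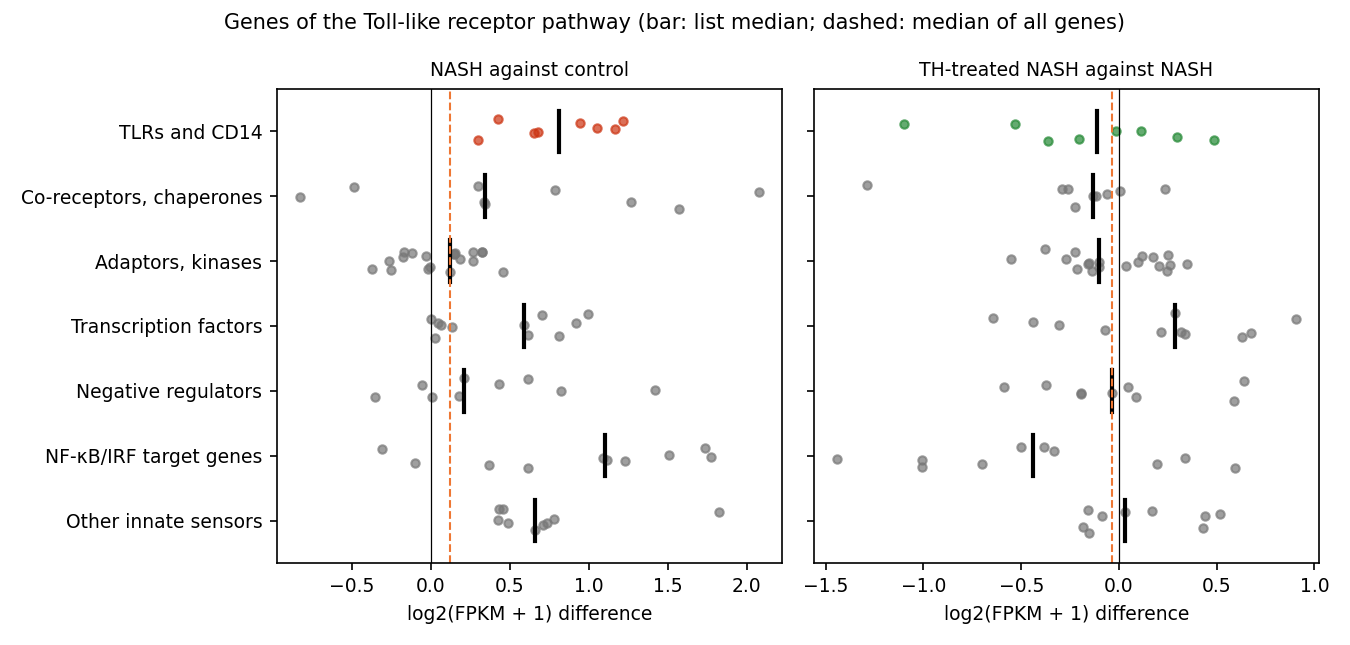
Difference of log2(FPKM + 1) for the genes of 7 lists that reached 1 FPKM in any library, NASH minus control on the left and TH-treated NASH minus NASH on the right (the axes differ in range); points are genes, black bars list medians and the dashed line the median of all genes. On the left the 8 receptor genes shown have a median of 0.81 (0.67 over all 10; Tlr1, Tlr2, Tlr7 and Tlr13 are shown only because of their levels outside control) and the adaptors and kinases 0.12.

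Markers of myeloid cells differed between the libraries beside the receptors. The 9 macrophage markers summed to 167.9 (control), 553.6 (NASH) and 619.3 (TH-treated NASH) FPKM, and 8 of the 9 were at least 1.5-fold higher in NASH than in control. Adgre1, the gene of the macrophage antigen F4/80 (Emr1 in the table), stood at 2.63, 9.03 and 9.95 FPKM. The 7 Kupffer cell markers summed to 96.9, 249.1 and 497.6 FPKM, among them Clec4f at 33.8, 59.9 and 129.9. Of these 7, 6 were higher and 1 (Cd163) lower in NASH than in control, and 6 were higher in TH-treated NASH than in NASH. Monocyte and lipid-associated macrophage markers, 10 genes, summed to 50.2, 151 and 94.0 FPKM, with 8 of the 9 that reached 1 FPKM higher in NASH. Ccr2, Itgax, Trem2, Gpnmb and Cx3cr1 are among the 8 and reached 1 FPKM only outside control, so this count is no support for a difference. Without Spp1, which is also a cholangiocyte marker, the sums were 23.1, 55.2 and 49.6 FPKM, and the ratio of TH-treated NASH to NASH was 0.900 in place of 0.623. The 10 neutrophil markers summed to 5.82, 11.5 and 108.6 FPKM. Of the 9 that reached 1 FPKM, 8 were higher in TH-treated NASH than in NASH. Retnlg, Ngp, Camp, Ltf, Mpo and Elane reached that level only in TH-treated NASH, so the count of 8 is no support for a difference. Of all genes tested, 10.3% were higher and 2.53% lower in NASH than in control. Between TH-treated NASH and NASH these shares were 8.42% and 9.02%. No myeloid marker of these lists was at 0 fragments in any library. The part of these cells in the differences of the receptors was not tested.

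The receptors were also set against the summed macrophage markers. Per 100 FPKM of macrophage markers, Tlr5 stood at 1.83 (control), 0.722 (NASH) and 0.215 (TH-treated NASH). Tlr3 stood at 0.961, 0.453 and 0.398 and Tlr12 at 4.14, 3.15 and 1.90. Tlr13 stood at 0.234, 0.216 and 0.222, and Cd14 at 1.09, 0.966 and 1.27, with ratios between libraries of 0.886 to 1.32. Control had the highest value for these but Cd14, and also for Tlr2 and Tlr8, 6 genes in all. Abundant markers weigh most in the sum: Lyz2 made up 24.9% (control) and 30.2% (NASH), and C1qa 29.8% (TH-treated NASH). The sum was 3.30-fold higher in NASH than in control, and its genes ran from 1.15-fold (Mertk) to 3.99-fold (Lyz2). The count of 6 therefore depends on the markers summed. Tlr1 was 1.44 times and Tlr7 1.18 times the control value in NASH, and Tlr2, Tlr4 and Tlr8 0.919, 1.04 and 0.788 times. Against the summed Kupffer cell markers all 10 genes were lower in TH-treated NASH than in NASH, from 0.167 times for Tlr5 to 0.739 times for Cd14. The Kupffer cell sum itself went from 249.1 FPKM (NASH) to 497.6 (TH-treated NASH). The largest ratio of the 10 genes, 1.48 for Cd14, was smaller than that rise. All 10 therefore had to be lower, and their count says nothing about the receptors. Cd5l alone made up 46.2% (NASH) and 40.2% (TH-treated NASH) of the Kupffer cell sum. The values against marker sums are ratios of single values whose markers were chosen with results known, and they have no error between animals.

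**Figure D4:**
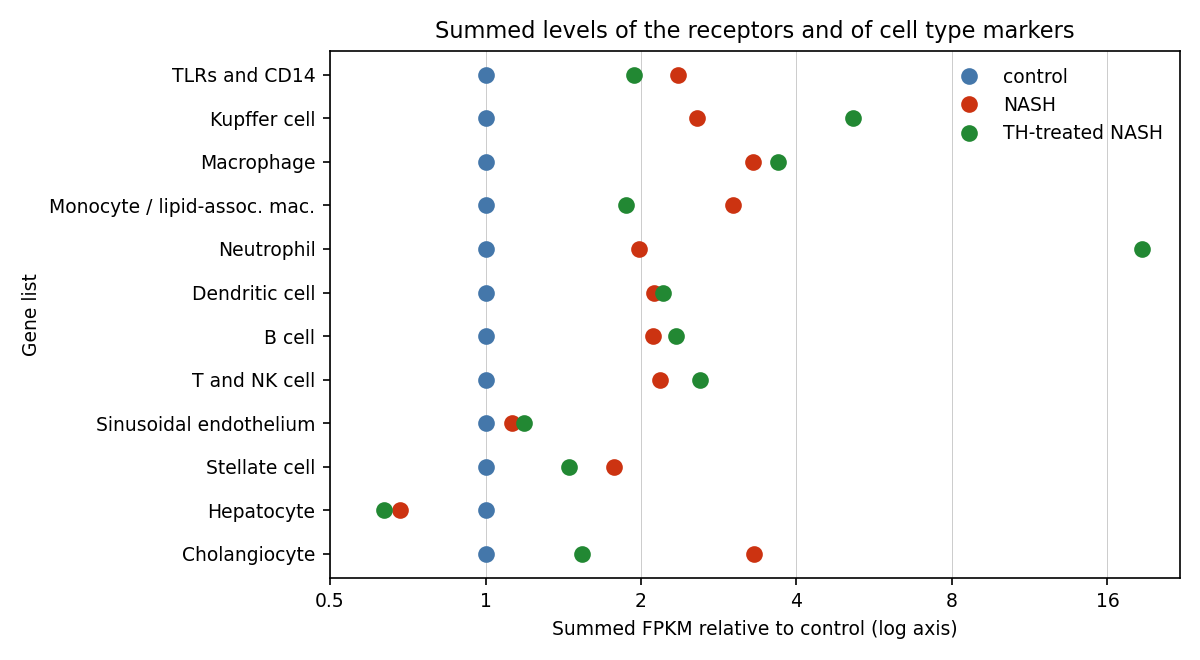
Summed FPKM of the 10 receptor genes and of 11 lists of cell type markers, each divided by its sum in control (log axis), 1 point per library. The receptors lie at 2.36 in NASH and 1.94 in TH-treated NASH. Tlr12 made up 54.5% (NASH) and 51.7% (TH-treated NASH) of the summed FPKM of the 9 TLR genes. The Kupffer cell, macrophage, neutrophil, dendritic cell, B cell, T and NK cell and sinusoidal endothelium markers are highest in TH-treated NASH. The monocyte and lipid-associated macrophage, stellate cell and cholangiocyte markers are highest in NASH and the hepatocyte markers in control.

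Other cell types were checked in the same way. The 7 markers of sinusoidal endothelium summed to 72.6, 81.6 and 86.1 FPKM and the 7 of stellate cells to 87.6, 155 and 126.8. Dendritic cell markers (7 genes) summed to 1.80, 3.81 and 3.96 FPKM, B cell markers (5 genes) to 2.21, 4.66 and 5.17, and T and NK cell markers (8 genes) to 2.57, 5.58 and 6.67, with Ncr1 at 0 fragments in control. The 8 hepatocyte markers summed to 58209, 39833 and 36976 FPKM, and the 5 cholangiocyte markers to 30.3, 101 and 46.6. Spp1 made up 89.1%, 95.2% and 95.1% of the cholangiocyte sum, which without it was 3.30, 4.83 and 2.29 FPKM. Dcn made up 62.6% to 65.4% of the stellate sum.

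Tlr12 was both the highest receptor and the one with the largest log2(FPKM + 1) difference between NASH and control, 1.22. Likeness to Tlr12 was sought among 7149 genes with at least 5 FPKM in any library. The nearest in the 2 log2(FPKM + 1) differences, NASH against control and TH-treated NASH against NASH, were Acot2, Fbf1, Tmem43, Cmtm7 and Camk2b. Their distances were 0.10 to 0.14 on the log2 scale. Of these, Acot2, a mitochondrial acyl-CoA thioesterase, stood at 2.51, 7.17 and 4.29 FPKM. The likeness rests on 3 libraries.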

How the data were processed

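FPKM values for 3 liver libraries, computed by the authors, were read from the deposited table. TopHat2 and HTSeq are named by the submitters' processing notes, without version, and neither strand mode nor build was given in the files or labels. The gene length that the authors deposited beside them is in bases. FPKM multiplied by length came in whole multiples of 1 step per library, and 100% of values above 0 gave whole fragments within 0.01, from which Clopper-Pearson intervals of ratios and Poisson intervals of levels were computed (95%). These cover counting error only, since PCR copies are not independent. Differences are log2(FPKM + 1), with genes counted from 1.5-fold among those of 1 FPKM or more in any library. For a gene of 3 kb, 0 fragments allow up to 0.0183 (control), 0.0213 (NASH) and 0.0261 (TH-treated NASH) FPKM (3 counts). The members and the lists, 181 entries in 19 lists, all found, were chosen with earlier results of these data known. Named genes were all members, up to 4 per list with the largest difference, and Ly96, Lbp, Myd88, Ticam1, Unc93b1, Adgre1 and Clec4f; for marker lists other than those of macrophages and Kupffer cells, sums are printed in their place. Symbols not matching 1 row were matched by gene ID. Alternatives were pseudocounts of 0.1 and 5 FPKM, other filters (one, on a mean of 0.4 FPKM, added after seeing the data), 3 scalings, a 2-fold threshold and plain ratios. Steps were tested on simulated data. Python 3.11.15, scipy 1.17.1 and pandas 2.3.3 were used.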

Additional observations from a re-analysis of the deposited data

How the results depend on the processing

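No paired analysis was possible because each group has 1 library, and no library could be left out. Of 150 log2 differences of the 10 genes recomputed with other pseudocounts and scalings, 97 stayed within the counting interval of the reported value and 53 did not, and none past 1.5-fold changed sign. The count of genes past 1.5-fold, 6 for NASH against control, 1 for TH-treated NASH against NASH and 6 for TH-treated NASH against control, became 2, 0 and 1 with a pseudocount of 5 FPKM, and 2, 0 and 2 among genes of at least 5 FPKM, where Tlr12 and Cd14 were the 2 genes left to count. With a 2-fold threshold the first and last became 3 and 1. Under the other settings, among them a filter on a mean of 0.4 FPKM chosen after seeing the data, these counts lay between 4 and 7, at 1, and between 5 and 8. Of all genes tested, 3.1% (pseudocount of 5 FPKM), 8.49% (at least 5 FPKM) and 3.24% (2-fold) were higher in NASH than in control. In TH-treated NASH 6.67%, 15.5% and 5.4% were higher than in control, and 3.88%, 9.61% and 2.75% lower than in NASH. Under the other settings these shares ran from 3.63% to 16.6%, from 5.45% to 21.1% and from 3.18% to 13.9%. There, 2.39% to 10.7% were lower in TH-treated NASH than in control. After median-of-ratios scaling Tlr7 and Tlr13, and after TMM scaling Tlr13, fell under 1.5-fold in NASH against control, and Tlr12 did in TH-treated NASH against control under both. Over all genes, the 1222 higher and 299 lower in NASH ranged from 367 to 1964 and from 89 to 521. For TH-treated NASH against NASH 996 and 1068 ranged from 320 to 1327 and from 325 to 1642, and against control 1830 and 812 ranged from 639 to 2493 and from 278 to 1266. Receptors under 100 fragments in control (Tlr1, Tlr4, Tlr7, Tlr8 and Tlr13) have the widest counting intervals.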

Other observations

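Sensors of other families were examined as well. Of 14 such genes 9 reached 1 FPKM. In NASH 5 of these were at least 1.5-fold higher than in control on the log2(FPKM + 1) scale and none lower. Their median was 0.66 (0.45 over all 14). Of all genes tested, 10.3% were higher and 2.53% lower. Pycard is among the 5 and reached 1 FPKM only outside control, so the count is no test. Clec7a, which encodes the fungal glucan receptor Dectin-1, stood at 1.12 (control), 6.49 (NASH) and 5.61 (TH-treated NASH) FPKM and was 5.80-fold higher in NASH (4.83 to 7.02). The inflammasome genes Casp1 and Pycard stood at 1.25, 2.86 and 4.20 FPKM and at 0.639, 1.73 and 2.90 FPKM, so that, as for Cd14 and Tlr7, TH-treated NASH was the highest library. Dhx58, which encodes the cytosolic RNA sensor LGP2, stood at 4.48, 7.98 and 9.09 FPKM and was 1.78-fold higher in NASH (1.60 to 1.98). In TH-treated NASH against NASH none of the 9 was 1.5-fold off on the log2(FPKM + 1) scale, with a median of 0.03. The shares of all genes tested were 8.42% higher and 9.02% lower. By plain ratio Pycard was 1.68-fold (1.31 to 2.16) and Aim2, another sensor gene, 1.67-fold (1.35 to 2.07) higher.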
